A study of Mus musculus with 8 samples.

Results

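The genes described are 9 secreted antagonists of bone morphogenetic proteins (BMPs) and activins: Nog, Chrd, Chrdl1, Chrdl2, Grem1, Fst, Bmper, Sost and Sostdc1. They were chosen by name from 43346 counted gene identifiers, and all 9 were found in the count data. RNA-seq was carried out on notochord-derived cells (NDCs) of Shh-cre;ROSA:YFP mice, in which Cre from the Shh locus marks cells with a history of Shh expression, and their descendants, with YFP. There were 4 samples of whole notochord at embryonic day 12.5 (E12.5; litters NDP10.2, NPD3, NPD4 and NPD9.2) and 4 of nucleus pulposus (NP) cells at postnatal day 0 (P0; litters NPD26, NPD27, NPD28 and NPD30). Each sample was 1 litter whose embryos or pups were pooled, all samples carried the same strain designation, and the labels name no treatment. The E12.5 notochords were dissected and frozen intact, without sorting, whereas the P0 cells were shaken out of the bisected discs and sorted for YFP, so a change with stage and a change with the isolation cannot be told apart. In these bulk samples, fewer cells of a type and less RNA per cell cannot be told apart either.

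BMPs and activins are secreted dimers that bind pairs of receptor kinases at the cell surface, which then phosphorylate Smad proteins that enter the nucleus and switch target genes on or off. The antagonists bind the ligands outside the cell and keep them from their receptors. The notochord is a classic source of noggin (Nog) and chordin (Chrd), which shape the neural tube and let sclerotome cells around it start on the path to cartilage. Gremlin 1 (Grem1), sclerostin (Sost) and Sostdc1 belong to the cystine knot antagonists, of which sclerostin and Sostdc1 also bind LRP coreceptors and so restrain Wnt signalling. Follistatin (Fst) is the main trap for activin.

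Of the 9 genes, 4 changed between the stages and 2 were too low to be tested with the rest. Nog was 30.6-fold lower and Fst 3.85-fold lower at P0 compared to E12.5, while Sostdc1 was 9.57-fold higher and Grem1 3.90-fold higher. Chrd, Chrdl1 and Bmper did not pass the test, and Chrdl2 and Sost were near the limit of detection. The summed level of these 9 genes thus passed from a mix led by Sostdc1 and Nog to one made up almost wholly of Sostdc1. Other extracellular antagonists are not part of this sum. The 4 called genes were 57.1% of the 7 tested, beside 27.9% of all 15467 tested genes, and 2 were called in each direction, beside 16.0% of all tested genes higher and 12.0% lower at P0. A gene was called at a Benjamini-Hochberg adjusted p under 0.05 in edgeR's quasi-likelihood test, with the adjustment over all tested genes. The median log2 fold change of the 7 genes was 0.024 and that of all tested genes 0.036. Litters of the stages did not overlap for 4 of the 7 genes, the same 4, beside 29.9% of all tested genes.

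**Figure D1:**
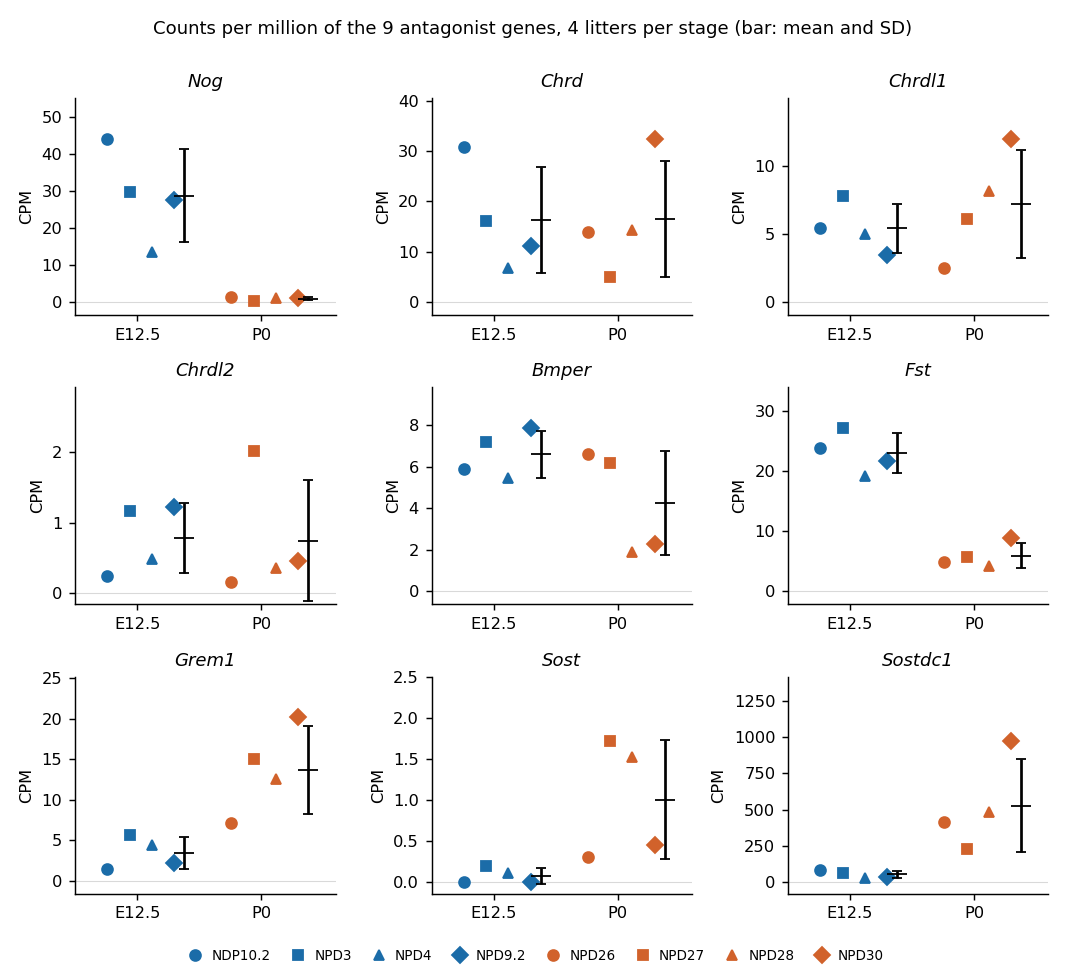
Library-scaled counts (CPM, vertical axis, linear and scaled for each gene) of the 9 genes in each litter at E12.5 and P0, with the mean and SD of the 4 litters at the right of each group. P0 litters lay below all E12.5 litters for Nog and Fst and above them for Grem1, Sostdc1 and, at 13 counts or fewer, Sost, and the stages overlapped for Chrd, Chrdl1, Chrdl2 and Bmper.

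Between 4442775 and 8904050 reads were counted on genes in each sample. Levels are given as CPM, counts scaled by the size of the library, and 3 counts, taken as the floor for counting error only, equalled 0.337 to 0.675 CPM. In the E12.5 litters NDP10.2 and NPD9.2, 16.3% and 17.5% of reads were ambiguous between genes, compared to 7.07% to 11.6% in the other 6 samples. Of the notochord markers, T, which encodes the notochord factor brachyury, was present at 242 to 942 CPM at E12.5 and 574 to 2323 CPM at P0, and Krt8 at 123 to 584 and 227 to 854 CPM. The 10 markers did not move together: Car3, Cd24a and Krt19 were called higher at P0, Shh (log2 fold change −7.14, edgeR adjusted p = 0.000742) and Foxa1 (−2.23, adjusted p = 0.00682) were called lower, and T, Krt8, Krt18 and Foxa2 were not called. Shh, which drives the Cre, was at 420.3 to 1348 CPM at E12.5 and 0.157 to 11.8 CPM at P0. Noto, a marker of the early notochord, had at most 1 count at E12.5 and at most 3 at P0. Summed markers of other cells did not all move with stage. Those of chondrocytes, neural tube and endothelium overlapped between stages. The 7 chondrocyte genes summed to 1756 to 6586 CPM at E12.5 and 1018 to 3928 CPM at P0. Of the 5 chondrocyte genes tested, 2 were called higher and 2 lower at P0. The sums of the remaining lists of other cells did not overlap. The 7 sclerotome genes, all called lower at P0, summed to 197 to 269 CPM at E12.5 and 26.5 to 45.3 CPM at P0, and 6 skeletal muscle genes fell from a range of 610 to 2550 to one of 43.6 to 163 CPM. The 7 erythroid genes, 5 of them called lower, summed to 9587 to 48139 CPM at E12.5 and 355 to 1216 CPM at P0. Their sum was highest in NDP10.2 and NPD9.2. In the other direction, 9 leukocyte genes, all called higher, summed to 55.0 to 156 CPM at E12.5 and 929 to 7975 CPM at P0, 8 osteoblast and osteocyte genes, all 8 with a higher mean at P0, to 4.96 to 12.3 and 320 to 666 CPM, and 6 annulus fibrosus and tendon genes, 5 with a higher mean at P0, to 493 to 1157 and 2388 to 7369 CPM. The E12.5 litter NPD4 had the highest sum of 8 neural tube genes, 1273 CPM compared to 96.0 to 155 CPM in its stage.

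Noggin, encoded by Nog (ENSMUSG00000048616.4, chromosome 11, 89300638 to 89302332, minus strand, GRCm38, a single exon of 1695 bases), binds BMPs and blocks both of their receptor contacts. Nog reached 44.1, 29.9, 13.4 and 27.5 CPM in the E12.5 litters NDP10.2, NPD3, NPD4 and NPD9.2. The P0 values were 1.26 CPM for NPD26, 0.288 for NPD27, 1.06 for NPD28 and 1.06 for NPD30. Every P0 litter lay far below every E12.5 litter, and the P0 values rested on only 8, 2, 9 and 7 counts. The mean fell from 28.7 ± 12.6 to 0.917 ± 0.429 CPM (SD, n = 4 litters each). The log2 fold change was −4.94 (SE 0.51, edgeR adjusted p = 0.000166), and it ran from −5.18 to −4.64, still called, with any single litter left out. In NPD27 the 2 counts of Nog lie under the floor of 3.

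Chordin, encoded by Chrd (ENSMUSG00000006958.9, chromosome 16, 20733127 to 20742384, plus strand, 14 exon blocks of 6258 bases in all), is the other classic notochord antagonist, and is cut by tolloid proteases, which frees the BMP it holds. Chrd reached 30.9, 16.2, 6.77 and 11.1 CPM at E12.5, with litters in the order given above as for the other genes, and 14.0, 4.90, 14.4 and 32.4 CPM at P0. The ranges overlapped almost completely, with a more than 4-fold spread inside each stage. Means were 16.2 ± 10.5 and 16.4 ± 11.5 CPM (SD, n = 4 each), and the log2 fold change of 0.02 (SE 0.58, edgeR adjusted p = 0.979) did not pass the test. With this error a change of moderate size in either direction was not detectable. Exons of Chrd share 239 bases (3.82% of its exon length) with Thpo on the opposite strand, and how strand was treated in counting is not given in the sources used here.

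The chordin-like genes Chrdl1 and Chrdl2 and the chordin-repeat gene Bmper were low at both stages. Chrdl1 (ENSMUSG00000031283.11, X chromosome, 143285674 to 143394262, minus strand) reached 5.43, 7.81, 4.96 and 3.44 CPM at E12.5 and 2.52, 6.06, 8.12 and 12.0 CPM at P0. Its lowest and its highest litter were both at P0, and the log2 fold change of 0.40 (SE 0.49, edgeR adjusted p = 0.582) did not pass. Bmper (ENSMUSG00000031963.7, chromosome 9, 23223076 to 23485200, plus strand), whose product can restrain or promote BMP signalling, reached 5.90, 7.22, 5.44 and 7.87 CPM at E12.5 and 6.60, 6.20, 1.88 and 2.27 CPM at P0. The P0 litters NPD26 and NPD27 lay within the E12.5 range and NPD28 and NPD30 below it. The log2 fold change of Bmper was −0.64 (SE 0.49, edgeR adjusted p = 0.366). Chrdl2 (ENSMUSG00000030732.8, chromosome 7, 100006172 to 100034728, plus strand) had 1, 6, 4 and 5 counts at E12.5 and 1, 14, 3 and 3 counts at P0, below the filter on low counts. Only NPD27 stood out, with 14 of the 21 counts at P0, and a fit without the filter gave a log2 fold change of −0.07 (edgeR adjusted p = 0.974), where 15.2% of 32299 genes were called.

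Follistatin, encoded by Fst (ENSMUSG00000021765.7, chromosome 13, 114452290 to 114458951, minus strand, 4589 exon bases), is best known for holding activin and also binds some BMPs. Fst reached 23.8, 27.1, 19.2 and 21.6 CPM at E12.5 and 4.87, 5.77, 4.24 and 8.94 CPM at P0. The E12.5 litters were close to each other, and all P0 litters lay below them. The mean fell from 23.0 ± 3.36 to 5.96 ± 2.09 CPM (SD, n = 4 each), with a log2 fold change of −1.94 (SE 0.32, edgeR adjusted p = 0.00148) that ran from −2.24 to −1.80 with any litter left out. The sclerotome genes, whose sum fell too, moved in the same direction as Fst, and their part in the result was not tested. Exons of Fst share 115 bases (2.51%) with the antisense gene Gm47040.

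Among the cystine knot antagonists, Sostdc1 (ENSMUSG00000036169.5, chromosome 12, 36314139 to 36318452, plus strand, 1781 exon bases) was the most abundant of the 9 genes and had the largest rise of the 7 tested. Sostdc1 reached 86.8, 64.4, 30.0 and 40.1 CPM at E12.5 and 418.9, 232.3, 486.4 and 976.8 CPM at P0. The lowest P0 litter, NPD27, was still well above the highest E12.5 litter, and NPD30 was by far the highest. The mean rose from 55.3 ± 25.5 to 529 ± 318 CPM (SD, n = 4 each). The log2 fold change was 3.26 (SE 0.49, edgeR adjusted p = 0.00111) and stayed between 2.74 and 3.52 without any single litter. NPD30, the litter with the highest Sostdc1, had the lowest leukocyte sum of the P0 litters (929 CPM). It also had the highest sum of 10 notochord genes (31824 CPM), of which Car3 alone gave 24889 CPM. NPD28, the litter with the next highest Sostdc1, had the highest leukocyte sum (7975 CPM), so the litters did not order by leukocytes. The part of either sum in the level of Sostdc1 was not tested.

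Grem1 (ENSMUSG00000074934.3, chromosome 2, 113746164 to 113758646, minus strand, 4148 exon bases), whose product gremlin 1 binds Bmp2, Bmp4 and Bmp7, reached 1.42, 5.66, 4.47 and 2.21 CPM at E12.5. It reached 7.08, 15.0, 12.6 and 20.2 CPM at P0. All P0 litters lay above the E12.5 litters. Within E12.5 the litters NDP10.2 and NPD9.2, those with the most ambiguous reads, were the lower pair. They also had the highest erythroid sums, at 24674 and 48139 CPM compared to 9587 and 9711 CPM in NPD3 and NPD4. The part of either in the level of Grem1 was not tested. The log2 fold change was 1.96 (SE 0.49, edgeR adjusted p = 0.0124) and was called without any single litter. It was 1.40 (adjusted p = 0.0891, no longer called) against NPD3 and NPD4 alone and 2.91 (adjusted p = 0.0145) against NDP10.2 and NPD9.2 alone. Summed annulus fibrosus and tendon genes were higher at P0 than at E12.5 as Grem1 was, and their part in the result was not tested.

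Sclerostin, encoded by Sost (ENSMUSG00000001494.6, chromosome 11, 101962458 to 101967015, minus strand), is a product of osteocytes that blocks Wnt signalling in bone. Sost had 0, 1, 1 and 0 counts at E12.5 and 2, 12, 13 and 3 counts at P0. The counts of 0 in NDP10.2 and NPD9.2 allowed up to 0.662 and 0.675 CPM. With 2 counts at E12.5 and 30 at P0 in all, the rate was 11.5 times higher at P0, with a 95% exact interval of 2.91 to 99.0 that covers counting error only. In a fit without the filter the difference did not pass (log2 fold change 3.26, SE 1.51, edgeR adjusted p = 0.143). Beside it, the osteocyte gene Dmp1 was at 0 counts throughout E12.5 and had 49, 113, 71 and 85 counts at P0, and Mepe had 0 counts at E12.5 and 5 to 17 at P0. The part of such cells in the level of Sost was not tested.

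RefSeq (GRCm38.p6) promoter windows were at hand for 4 of the 9 genes, Grem1, Chrd, Bmper and Sost. Those of Grem1, which was called higher at P0, and Chrd, which overlapped between the stages as Bmper did, are shown. Each is the 250 bases before the start, 5′ to 3′ on the gene's strand. Capitals mark the GC box GGGCGG on either strand, and CCGCCC is the same box read from the other strand. The windows are chr2:113758649-113758898 (minus strand) for Grem1 and chr16:20732877-20733126 (plus strand) for Chrd.
Grem1: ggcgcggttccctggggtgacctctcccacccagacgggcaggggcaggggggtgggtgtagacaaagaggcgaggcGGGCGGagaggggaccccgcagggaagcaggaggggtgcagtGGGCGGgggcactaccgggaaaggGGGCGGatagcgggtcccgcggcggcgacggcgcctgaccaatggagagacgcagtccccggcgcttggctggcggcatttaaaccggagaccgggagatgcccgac
Chrd: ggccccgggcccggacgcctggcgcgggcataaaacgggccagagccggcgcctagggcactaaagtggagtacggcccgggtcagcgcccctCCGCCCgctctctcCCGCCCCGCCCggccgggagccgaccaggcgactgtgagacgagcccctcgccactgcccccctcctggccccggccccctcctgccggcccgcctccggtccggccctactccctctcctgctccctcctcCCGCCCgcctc
The Grem1 window held 3 GC boxes and the Chrd window 4, of which 1 pair overlaps by a base. Of all 32851 windows of the same length, 32.7% held at least 1. Neither window held TATAAA (12.4% of all windows), the T-box core AGGTGTGA (1.12%), the Gli core GACCACCCA (0.225%) or the E-box CACCTG (17.2%) on either strand. Both are rich in G and C, at 72.0% for Grem1 and 78.0% for Chrd beside a median of 52.4% over all windows. A match is a description of letters in this window and not evidence of a bound site.

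To compare the genes with each other, levels were divided by exon length in kilobases (RPKM). At E12.5 the order of mean levels per length was Sostdc1 (31.1 RPKM), Nog (17.0), Fst (5.00), Chrd (2.59), Bmper (1.37), Grem1 (0.829), Chrdl1 (0.800), Chrdl2 (0.213) and Sost (0.038 RPKM). Litters of neighbours in this order overlapped except between Nog and Fst and between Chrdl1 and Chrdl2. At P0 Sostdc1 led with 297 RPKM, and its litters did not overlap those of Grem1, the next with 3.30 RPKM. Chrd (2.62), Fst (1.30), Chrdl1 (1.06), Bmper (0.877), Nog (0.541), Sost (0.488) and Chrdl2 (0.204 RPKM) followed, each overlapping its neighbour. Nog thus went from the second place to the seventh, and Grem1 from the sixth to the second.

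The summed level per length of the 9 genes was 58.9 ± 23.4 RPKM at E12.5 and 307 ± 181 RPKM at P0 (SD, n = 4 each). Sostdc1 made up 55.8%, 54.2%, 50.8% and 46.6% of the E12.5 sums and 96.8%, 93.3%, 96.7% and 97.3% of the P0 sums. Nog made up 29.8%, 26.4%, 23.9% and 33.7% of the E12.5 sums, but only 0.111% to 0.306% of those of P0. Fst took 9.30% ± 2.76 at E12.5 and 0.502% ± 0.269 at P0, and Chrd 4.12% ± 1.06 and 0.803% ± 0.170 (SD, n = 4 each). Without Sostdc1 the sum of the other 8 genes fell, from 27.8 ± 9.31 to 10.4 ± 3.30 RPKM. The P0 litters (7.68 to 15.2 RPKM) lay below the E12.5 litters (16.3 to 38.6 RPKM). The mean of Nog alone fell from 17.0 to 0.541 RPKM, and that of Fst from 5.00 to 1.30 RPKM. Grem1 rose from 0.829 to 3.30 RPKM and Chrd was at 2.59 and 2.62 RPKM, so the 8 genes did not fall together.

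**Figure D2:**
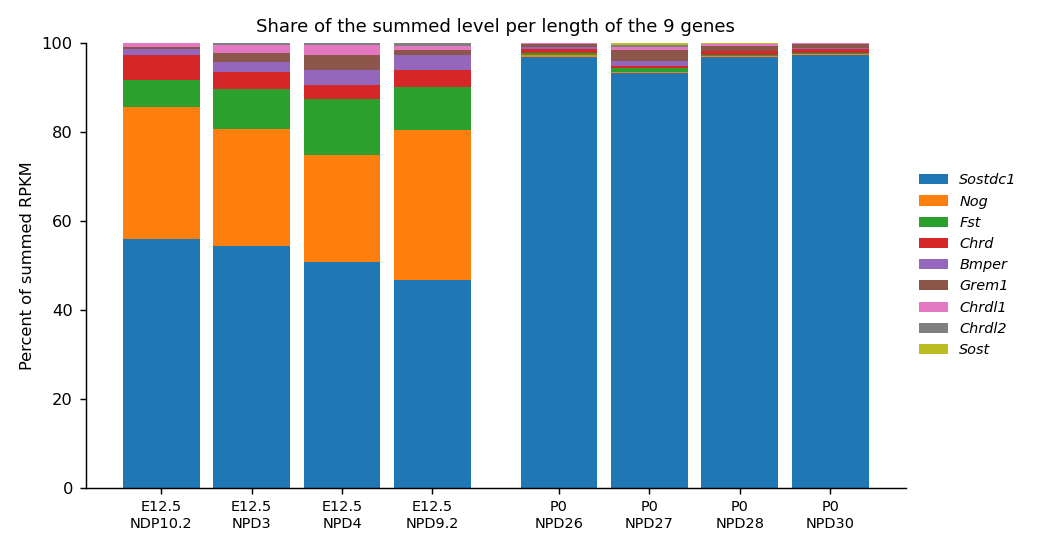
Share of each gene (percent of the summed RPKM of the 9 genes, vertical axis) in each of the 8 litters. Sostdc1 filled 46.6% to 55.8% of the bar at E12.5 and 93.3% to 97.3% at P0, and the share of Nog fell to under 1% in every P0 litter.

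Litters of a stage differed in how much T they held, with a coefficient of variation (CV) of 57.4% at E12.5 and 56.5% at P0, so the antagonists were also expressed as counts per 100 counts of T in the same library. T, the other notochord markers and the sclerotome sum were chosen as references after the values were seen. T itself did not pass the test between stages (log2 fold change 1.18, SE 0.52, edgeR adjusted p = 0.117). Sostdc1 came to 9.21, 8.15, 12.4 and 11.1 per 100 T at E12.5 and to 41.6, 40.5, 35.5 and 42.0 per 100 T at P0. The spread of Sostdc1 among litters was thus narrower than in CPM, most of all at P0, with the CV falling from 46.1% to 18.6% at E12.5 and from 60.1% to 7.60% at P0. Of all tested genes, 0.680% at E12.5 and 0.162% at P0 had a CV relative to T as low as that of Sostdc1. The ratio was 3.91-fold higher at P0, whereas the fold change in CPM was 9.57. Being higher in every P0 litter relative to T was a pattern of 2.25% of tested genes.

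Chrd, which overlapped between stages in CPM, separated them relative to T. It came to 3.28, 2.05, 2.80 and 3.05 per 100 T at E12.5 and 1.39, 0.854, 1.05 and 1.40 per 100 T at P0. All P0 litters lay below all E12.5 litters, by 2.39-fold in the mean, a pattern that 18.4% of tested genes shared. The CV of Chrd fell from 64.8% to 19.1% at E12.5 and from 70.3% to 22.8% at P0. The direction of Chrd depended on the marker it was measured against. Of the 9 notochord markers counted in every litter, the P0 litters of Chrd lay below the E12.5 litters relative to 4 (T, Krt8, Krt19 and Car3), above them relative to 4 (Krt18, Foxa1, Foxa2 and Shh), and overlapped relative to Cd24a. Relative to Krt8 it was at 4.46 to 5.50 per 100 at E12.5 and 2.16 to 3.80 at P0, but relative to Krt18 at 6.62 to 11.6 per 100 at E12.5 and 12.9 to 19.7 at P0. Sostdc1 was higher in every P0 litter relative to 8 of the 9 markers and overlapped relative to Car3, and Nog was lower in every P0 litter relative to 8 and higher relative to Shh. Fst was lower relative to 5, overlapped relative to 3 and was higher relative to Shh, and Grem1 was higher relative to 4 and overlapped relative to 5. The share of all tested genes with such a pattern was counted for T only, so the counts over the other markers have no background beside them. Relative to Shh every one of the 9 antagonists was higher in every P0 litter. Shh itself was at 0.157 to 11.8 CPM at P0, so these ratios carry its fall.

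Nog followed T among the E12.5 litters, with 4.68, 3.78, 5.56 and 7.60 per 100 T, and was 72.5-fold lower relative to T at P0, at 0.125, 0.050, 0.077 and 0.046 per 100 T. At E12.5 the litters held Nog, Chrd and Sostdc1 in the same order as T, from NDP10.2 down to NPD4, and at P0 the order of Chrd and Sostdc1 was again that of T, from NPD30 down to NPD27. Of all tested genes, 5.10% had the order of T at E12.5, 6.83% at P0 and 0.886% at both stages. None of the other 6 genes had the order of T at E12.5. Grem1 overlapped between stages relative to T, at 0.150 to 1.85 per 100 T at E12.5 and 0.703 to 2.61 at P0.

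**Figure D3:**
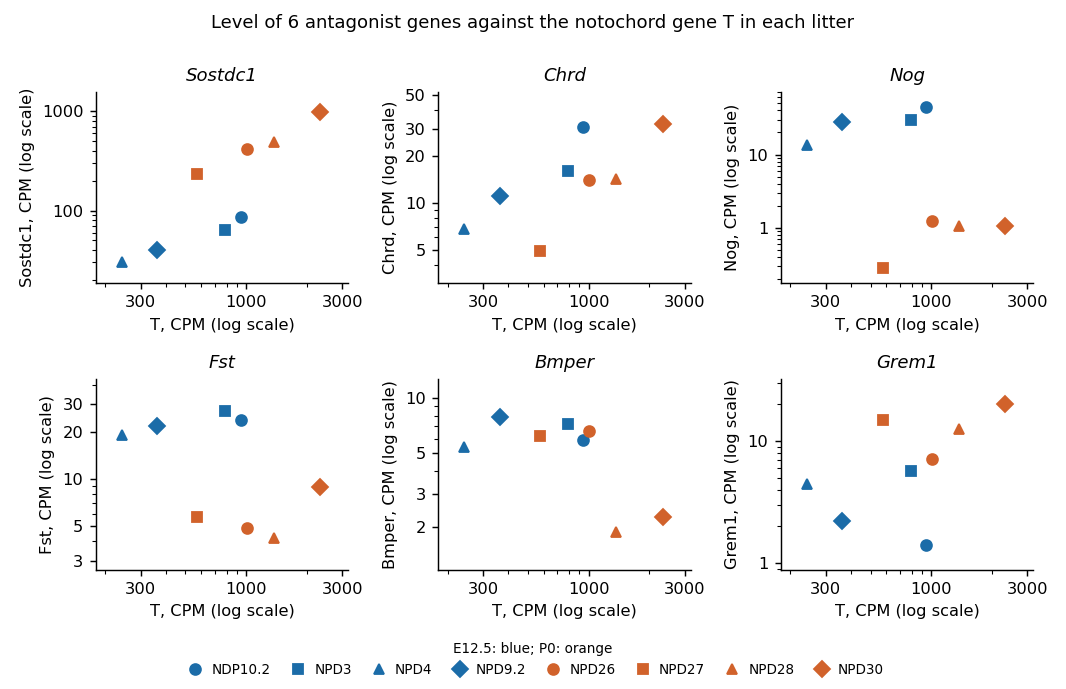
Level of 6 antagonist genes (CPM, vertical log axis) against that of T (CPM, horizontal log axis), each point 1 litter. Sostdc1 and Chrd rose with T within each stage, Sostdc1 at P0 about 40 per 100 T and at E12.5 about 10 per 100 T, whereas Fst and Bmper were nearly level over the E12.5 litters.

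Fst and Bmper had another pattern at E12.5. Relative to T their spread among litters grew, from a CV of 14.6% to 49.6% for Fst and from 17.1% to 56.4% for Bmper. Relative to the sum of 7 sclerotome genes (Pax1, Pax9, Nkx3-2, Foxc1, Foxc2, Meox1 and Twist1) it shrank to 8.57% for Fst and 8.11% for Bmper. Fst came to 10.5, 10.1, 9.77 and 8.59 per 100 of this sum at E12.5, and Bmper to 2.61, 2.69, 2.77 and 3.12 per 100. Only 1.81% and 1.56% of tested genes had a CV relative to the sclerotome sum as low as those of Fst and Bmper. A smaller CV relative to this sum than to T was common, at 90.6% of tested genes, and the opposite, shown by Nog, Chrd and Sostdc1, was found for 8.89%. These are descriptions over 4 litters, and which cells of the dissected E12.5 tissue held each transcript was not tested. At P0 the CV of Fst relative to the sclerotome sum was 22.0%, with more Fst per unit of the sum (12.7 to 20.3 per 100) than at E12.5 (8.59 to 10.5 per 100). All 7 sclerotome genes were called lower at P0. Relative to their sum the P0 litters of Chrdl1, Grem1, Bmper, Sost and Sostdc1 also lay above those of E12.5. The share of all tested genes with this pattern was not counted.

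**Figure D4:**
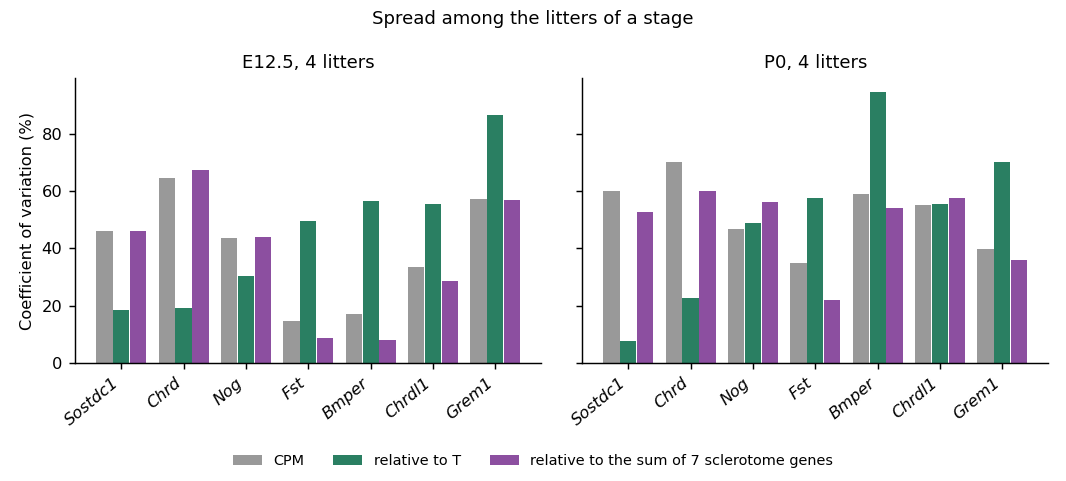
Coefficient of variation among the 4 litters of each stage (percent, vertical axis) for 7 genes, in CPM, relative to T and relative to the sum of 7 sclerotome genes. Relative to T the bars of Sostdc1 and Chrd were the lower ones at both stages (7.60% to 22.8%), and at E12.5 those of Fst and Bmper were lowest relative to the sclerotome genes (8.57% and 8.11%).

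Genes of the rest of the pathway were taken from lists and described by their counts. Of 15 other extracellular antagonists 12 were tested, of which 2 were higher and 3 lower at P0 (41.7% called, beside 27.9% of all tested genes; median log2 fold change −0.31). The count was 3 in place of 5 without the E12.5 litters NPD3 and NPD4. Fstl3, a follistatin-like trap for activin and myostatin, rose from 0.707 ± 0.691 to 6.64 ± 3.79 CPM (log2 fold change 3.24, SE 0.81, edgeR adjusted p = 0.0122), so it moved opposite to Fst. Nbl1, a cystine knot antagonist like Grem1, rose from 21.1 ± 7.05 to 58.3 ± 33.8 CPM (log2 fold change 1.47, SE 0.39, adjusted p = 0.0167). The matrix protein gene Smoc2 fell from 75.4 ± 19.7 to 5.83 ± 2.50 CPM (log2 fold change −3.69, SE 0.35, adjusted p = 0.00012) and Kcp, which has chordin-like repeats, from 20.0 ± 9.35 to 4.15 ± 1.16 CPM (adjusted p = 0.0024). Fstl1 had the highest level per length of the list and did not pass (log2 fold change −0.28, adjusted p = 0.456). Its mean of 84.5 RPKM at E12.5 was above the 31.1 RPKM of Sostdc1, and its 69.6 RPKM at P0 was below the 297 RPKM of Sostdc1.

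The ligands the antagonists bind were lower or did not pass. Of 16 ligand genes 12 were tested, none was called higher and 6 were called lower at P0 (50.0% called, beside 27.9% of all tested genes, of which 12.0% were lower; median log2 fold change −1.24). Bmp7 had the highest level per length of the list over both stages, but at P0 its 3.93 RPKM lay below Bmp5 (7.79) and Inha (6.41 RPKM). It fell from 71.8 ± 20.6 to 15.8 ± 5.40 CPM (log2 fold change −2.18, SE 0.31, edgeR adjusted p = 0.000794). Mstn, which encodes myostatin of skeletal muscle, had 4.49 to 6.89 CPM at E12.5 and 3 counts in all at P0, a rate of 0.0178 times that at E12.5 (95% exact interval 0.00362 to 0.0531, for counting error only). Its fall, called at an edgeR adjusted p of 0.000727, moved with that of the summed skeletal muscle genes, and their part in it was not tested. Inhba, which encodes the activin A subunit held by follistatin, was not called (log2 fold change −0.51, adjusted p = 0.579) and was named outside the rule because Fst is its antagonist.

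All 14 receptor genes were tested, of which 2 were higher and 5 lower at P0 (50.0% called, beside 27.9% of all tested genes). The count was 4 in place of 7 without the E12.5 litters NDP10.2 and NPD9.2. The activin type II receptor genes parted, with Acvr2a up from 48.0 ± 13.5 to 220 ± 173 CPM (log2 fold change 2.19, SE 0.52, edgeR adjusted p = 0.0104) and Acvr2b down from 36.1 ± 11.5 to 4.44 ± 0.645 CPM (log2 fold change −3.02, SE 0.30, adjusted p = 0.000147). Acvrl1, a receptor best known in endothelium, was higher at P0 (log2 fold change 2.35, adjusted p = 0.0124), although its litters overlapped, while 5 summed endothelial genes were at 69.1 to 141 CPM at E12.5 and 22.3 to 107 CPM at P0. The leukocyte sum was higher at P0, and its P0 litters had the same order as those of Acvrl1. NPD30 was lowest in both, at 929 CPM for the sum and 4.70 CPM for Acvrl1. The part of any of these cells in the level of Acvrl1 was not tested. The BMP coreceptor genes Rgmb (log2 fold change −1.67, adjusted p = 0.000441) and Rgma (−1.78, adjusted p = 0.0258) fell. The litters of Rgma overlapped and its call was lost in the fit without a filter (adjusted p = 0.0903). Rgma was the highest of the list per length over both stages, but at P0 its 11.1 RPKM lay below Acvr2a (38.6), Bmpr1a (13.4) and Bmpr2 (13.2 RPKM). The LRP coreceptor genes that Sost and Sostdc1 products bind were tested for all 3 and none was called, with Lrp6 at 216 ± 54.8 and 201 ± 34.4 CPM (log2 fold change −0.10, adjusted p = 0.803). By the fit without a filter on low counts 1 of these 3, Lrp5, was called (adjusted p = 0.0231), and without the P0 litter NPD26 1 was called.

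Inside the cell, 3 of 8 Smad genes were called, all lower at P0 (37.5%, beside 27.9% of all tested genes). The count was 1 without the E12.5 litter NPD9.2, without the P0 litter NPD27 or without NDP10.2 and NPD9.2, and 5 with upper quartile scaling. Smad5, which carries the BMP signal, fell from 165 ± 19.7 to 73.8 ± 7.09 CPM (log2 fold change −1.17, SE 0.20, edgeR adjusted p = 0.00201), and the inhibitory Smad6 from 18.6 ± 5.95 to 7.64 ± 2.39 CPM (adjusted p = 0.0205). Smad4, the shared partner of all routes, did not pass (log2 fold change −0.46, adjusted p = 0.114). Of 12 genes known as BMP targets, 8 were called (66.7%, beside 27.9% of all tested genes), 3 higher and 5 lower, so the list did not move one way. The count was 5 without NDP10.2, without the P0 litter NPD26 or without NDP10.2 and NPD9.2. Id1 fell from 89.4 ± 6.55 to 37.9 ± 8.27 CPM (adjusted p = 0.00248) and Id3 from 141 ± 17.9 to 58.4 ± 6.74 CPM (adjusted p = 0.00148). Id2 (log2 fold change 0.91, adjusted p = 0.0453), Id4 (2.39, adjusted p = 0.00136) and Dlx5 (3.91, adjusted p = 0.000959) rose. Dlx5 is also a gene of osteoblasts, whose summed markers rose, and their part in its rise was not tested. Bmp1, the only tolloid protease gene of 3 that was tested, fell (log2 fold change −1.04, SE 0.30, adjusted p = 0.0231), a call that was lost without NPD9.2, without NPD26, without NPD27 or without either pair of E12.5 litters.

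**Figure D5:**
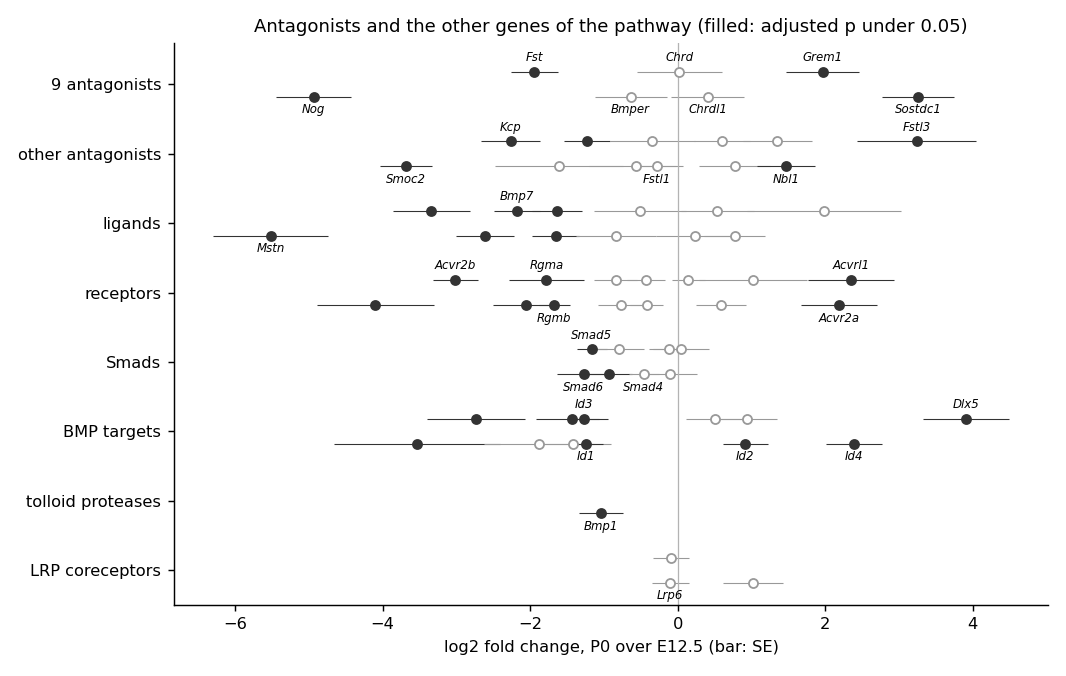
Log2 fold change of P0 over E12.5 (horizontal axis, bars are SE) for the tested genes of each list, with filled points called at an edgeR adjusted p under 0.05 and the genes named in the text labelled. The antagonists spread from Nog at −4.94 to Sostdc1 at 3.26, and every called ligand and Smad gene lay left of 0.

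The genes whose log2 CPM over the 8 samples was most like that of each antagonist were sought among 12687 tested genes with a mean log2 CPM of at least 2, by Pearson's r and as a description, since stage is shared by all of them. Nearest to Nog were Nfatc4 (r = 0.995), Gli1 (0.994) and Spaca6 (0.994), and nearest to Sostdc1 were Zbtb38 (0.995), Fxyd6 (0.994) and Minar1 (0.992). Fst was nearest to Fzd1 (r = 0.992), Neo1 (0.992) and Zdbf2 (0.989), and Grem1 to Cog7 (0.985), Mmgt1 (0.982) and Otud1 (0.979). Those genes share a step between stages with the antagonist they lie near. Chrd, with no such step, was nearest to Mlh3 (r = 0.973), Mfsd4b4 (0.946) and Lysmd2 (0.940). Bmper was nearest to Fcf1 (r = 0.992), Rps27l (0.984) and Utp11 (0.974), and Chrdl1 to Pcmtd2 (0.937), Lonrf1 (0.929) and Npepps (0.926). No antagonist was among the 3 nearest genes of another.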

How the data were processed

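RNA was isolated from pooled litters, and libraries were made with the TotalScript kit for low RNA input. The authors aligned the reads with STAR 2.4.0j to GRCm38.p3 and counted them on genes with HTSeq, and the deposited values are raw counts per gene, 1 file per sample, without normalization. Their processing notes also name mm9, whose role is not given in the sources used here. Rows that name no gene (ambiguous, not unique, no feature) held 65.2% to 77.4% of the reads and were left out. Gene symbols, positions and exon lengths came from Gencode M21 (42462 of 43346 identifiers matched), a later annotation than that used for counting, so lengths are approximate.

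Counts were tested with edgeR 4.0.16 in R 4.3.3 (TMM scaling, filterByExpr with minimum count 10 and minimum total 15, robust quasi-likelihood F-test, Benjamini-Hochberg adjustment over 15467 genes), with stage as the only term. The study itself used DESeq2. CPM use TMM library sizes, log2 CPM a prior count of 2, and log2 ratios to T or Krt8 an added count of 0.5. DESeq2 1.42.0, limma-voom 3.58.1, other scalings, no filter and left-out litters were alternatives. The edgeR, DESeq2 and limma-voom fits were also run on counts simulated with the same dispersion for every gene. Spread among these litters differs between genes, so no error rate for these data follows from that run. Samples are separate litters, and litter codes pair nothing across stages. Genes named were the 9 antagonists, up to 2 higher and 2 lower genes per list with the smallest adjusted p plus the highest per length, and the 3 nearest genes of each tested antagonist. The members and lists were chosen with earlier results of these data known. The promoter windows came from RefSeq, and 5 of the 9 genes had none.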

Additional observations from a re-analysis of the deposited data

Results flagged for a closer look

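In 62 groups of 4 litters (each named gene at each stage), 3 held a litter farther from the others than the 95% limit of Dixon's test allows, and chance alone gives about 1 in 20. Nog in the P0 litter NPD27 was at a log2 CPM of −0.72, compared to 0.46 to 0.66 in the other P0 litters, and rested on 2 counts. Rgmb in the E12.5 litter NPD4 was at 6.92, compared to 6.53 to 6.59, and NPD4 was also the litter with the highest neural tube sum. Id3 in the P0 litter NPD27 was at 5.6, compared to 5.93 to 5.98.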

How the results depend on the processing

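Nog, Fst and Sostdc1 kept their direction and their call under DESeq2, limma-voom, other scalings, no filter and no robust estimates. They also kept both without mitochondrial and hemoglobin genes, without any single litter and without either pair of E12.5 litters. Relative to T or Krt8 they kept their direction, with an unadjusted exact permutation p of 0.0286 in place of a call. That is the smallest p possible with 4 against 4 litters. Chrd, lower at P0, reached it relative to both as well, but was higher relative to 4 of the 9 notochord markers (Krt18, Foxa1, Foxa2 and Shh). Being lower in every P0 litter relative to T was a pattern of 18.4% of tested genes. Nog, Fst and Sostdc1 did not keep their direction relative to every reference. Fst was higher at P0 per unit of the sclerotome sum, and it overlapped relative to 3 notochord markers. Sostdc1 overlapped relative to Car3. Nog and Fst were higher relative to Shh, as was every antagonist, and Shh itself was called lower at P0. Grem1 kept its call under the fits by other tools, scalings and filters and without any single litter. The call was lost without the E12.5 litters NDP10.2 and NPD9.2 (log2 fold change 1.40, adjusted p = 0.0891). Grem1 also did not pass relative to T (0.85, exact permutation p = 0.343) and relative to Krt8 (1.41, exact permutation p = 0.171). These 3 alternatives were added after the values were seen. Chrd, at 0.02, turned to −0.10 with upper quartile scaling, −1.26 relative to T, −0.70 relative to Krt8 and −0.35 without NPD3 and NPD4, and ran from −0.57 to 0.50 with single litters left out. Chrdl1, at 0.40, turned to −0.96 relative to T and −0.39 relative to Krt8. Chrdl2, at −0.07, turned to 0.038 without NPD3 and NPD4 and ran from −1.18 to 0.26 with single litters left out. Sost, not called by edgeR, was called by limma-voom without a filter (2.50, adjusted p = 0.0323). The cause of these changes was not tested. The count of all called genes was 4321, and 2581 without NDP10.2 and NPD9.2, where fewer samples were fitted. Upper quartile scaling moved the median log2 fold change of all genes by −0.147 and the calls to 2105 higher and 2322 lower, from 2468 higher and 1853 lower. Without dividing by length the share of Sostdc1 was 38.6% at E12.5 and 90.2% at P0. No paired analysis was possible because litters of the stages share no number. At 2 to 9 counts per P0 litter, depth limits the size of the Nog change more than its direction, and the places of Chrdl2 and Sost in the order per length rest on few counts.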
